A study of Mus musculus with 12 samples.

Results

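The cytoplasmic ribosomal proteins are the protein subunits of the ribosomes that translate nuclear-encoded mRNA. The 81 genes described here were taken by symbol (Rps or Rpl with a number and at most a closing a, x or l, together with Rplp0, Rplp1, Rplp2, Rpsa and Rpl22l1) from the 56832 gene entries of a mouse count table. Each has at least 10 counts in at least 3 libraries. They divide into 32 genes of the small subunit and 49 of the large subunit. The rule used no comparison between groups.

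The libraries came from bone marrow cells sorted as CD45+, F4/80+, Ly6g- and Ly6c-, a surface pattern of macrophages. Healthy mice gave the 6 non-leukemic libraries, 3 from males and 3 from females. Mice that had received transplanted cells of the bcCML model, a mouse model of blast-crisis chronic myeloid leukemia, gave the 6 leukemic libraries at day 11, a late stage of disease, again 3 from males and 3 from females. Strain, age and the alleles of the transplanted cells are not given in the sources used here, and neither is whether replicates were separate mice, so p values speak of the variation among libraries alone. The non-leukemic mice are described only as healthy, so transplantation and leukemia cannot be told apart.

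A ribosome holds 1 copy of most of these proteins, and cells make them in near-equal amounts. Their mRNAs are abundant, short and, as a class, begin with a C followed by a run of pyrimidines, the terminal oligopyrimidine (TOP) motif, through which mTOR and the RNA-binding protein LARP1 set how much of the mRNA is translated. A few have paralogs that can replace them in some tissues, such as Rpl3l in muscle and Rpl39l in testis. Because TOP control acts on translation, an mRNA count does not measure it.

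The start sites of a few genes are given below, and not all of them show the motif. Each line gives 20 bases before and 15 bases from the start in the RefSeq table of build GRCm38.p6, with capitals marking a run of C and T, at least 5 bases long, that begins with C within 5 bases of the start. Rps21, Rplp2 and Rps2 lie among the most negative fold changes below, Rps6 is the most positive among well-counted genes, Rps27 and Rps27l are a paralog pair as are Rpl22 and Rpl22l1, and Rpl41 has the highest level per coding length.
Rps21 at chr2:180257359-180257393, plus strand: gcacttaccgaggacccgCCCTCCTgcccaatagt
Rplp2 at chr7:141447631-141447665, plus strand: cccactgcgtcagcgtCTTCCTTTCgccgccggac
Rps2 at chr17:24720043-24720077, plus strand: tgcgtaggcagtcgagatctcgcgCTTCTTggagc
Rps6 at chr4:86857353-86857387, minus strand: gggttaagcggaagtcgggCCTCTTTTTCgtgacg
Rps27 at chr3:90213634-90213668, minus strand: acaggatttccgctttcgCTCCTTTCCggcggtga
Rps27l at chr9:66946066-66946100, plus strand: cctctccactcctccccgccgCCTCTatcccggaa
Rpl22 at chr4:152324416-152324450, plus strand: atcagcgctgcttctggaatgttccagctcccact
Rpl22l1 at chr3:28805488-28805522, plus strand: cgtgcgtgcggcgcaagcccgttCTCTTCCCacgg
Rpl41 at chr10:128549154-128549188, minus strand: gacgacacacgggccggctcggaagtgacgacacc

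In these windows Rps6 has the run of 10 pyrimidines that starts 1 base before the annotated start, whereas Rpl22 and Rpl41 have no run that begins within 5 bases of it. The marked runs of Rps2, Rpl22l1 and Rps27l begin after the annotated start, so they are not the TOP motif as defined above. Of the 81 genes, 60 matched the table. A C at the annotated start with 4 pyrimidines after it was found in 14 of those 60 (23.3%), against 813 of 27025 genes (3.01%). Allowing the run to begin up to 5 bases to either side gave 30 of 60 (50%), against 21.2% of all genes. In the 300-base windows from 250 before to 50 after the start, read on both strands, CCGGAAG (an ETS-type motif) stood in 41.7% of the 60 against 9.93% of all genes. AAGATGG, the core of a YY1 motif, stood in 15% against 7.28%, and GGGCGG, an Sp1-type GC box, in 60% against 38.2%. These are matches of letters and no binding was measured.

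Together the 81 genes held 2.05% of all counts. Levels below are CPM, counts scaled to a common library size with trimmed-mean (TMM) factors. Library totals ran from 16911827 to 30014855 counts, and 3 counts, the most that a count of 0 allows, correspond to 0.1 to 0.177 CPM. Of the genes matched by symbol, 3 more fell below the minimum: Rpl10l at 0 counts in all libraries, Rpl6l at 11 counts in total, and Rpl24 at 84 counts in total.

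Per kilobase of coding sequence the median gene stood at a mean of 437 CPM over the 12 libraries. Rpl41, which encodes a very short peptide of the large subunit, was highest at 3220 CPM per kb. Its coding sequence has 75 bases, but its exons hold 544. Levels here divide by coding length alone, and that rank does not hold per exon base. Rpl41 had a mean of 241 CPM over its 544 exon bases, whereas Rpl13 had 749 CPM over 780. Rpl32 followed at 1390 and Rps14 at 1330. Rpl4, a core protein of the large subunit, reached 992 CPM per kb, and the stalk base Rplp0 1250. At the low end were Rpl3l at 0.795, Rpl39l at 2.8 and Rps10 at 3.72 CPM per kb, then Rpl13a at 31.8, Rpl23a at 58.6, Rpl22l1 at 105 and Rpl30 at 143. Rpl3l and Rpl39l are tissue-restricted paralogs, but Rps10, Rpl13a, Rpl23a and Rpl30 encode constitutive subunits.

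Several of those constitutive genes lie in exons shared with another annotated gene. In GENCODE M21, 91.6% of the exon bases of Rps10 also lie in a readthrough gene with Nudt3, 59.3% of those of Rpl13a in other genes, 57.4% for Rpl30 and 55.4% for Rpl23a. The corresponding share for Rpl24 was 71.5%. In all, 11 of the 81 genes share more than 10% of their exon bases. The overlap does not always go with a low level, since Rpl35 shares 68.3% and stood at 291 CPM per kb, and Rpl32 shares 20.5% and is among the highest. How reads over several genes were counted is not given in the sources used here, and its part in these levels was not tested. Levels of these genes, of close paralogs and of genes with many processed pseudogenes are therefore uncertain. The 321 rows with a ribosomal protein symbol followed by -ps held 0.0071% of all counts. Copies under other symbols are not in that share, so it does not give the counts of all pseudogenes.

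**Figure D1:**
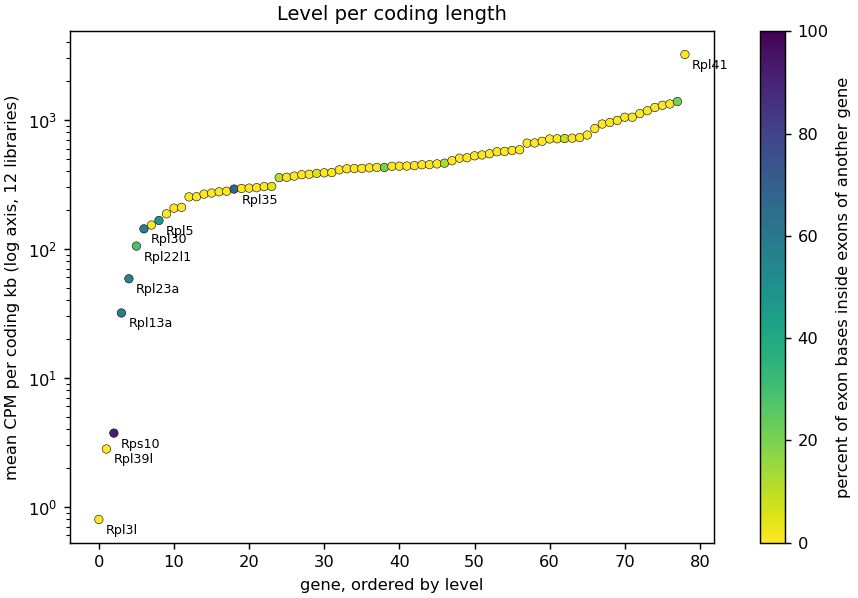
Mean level of 79 ribosomal protein genes with a known coding length, as TMM-scaled CPM per coding kilobase over 12 libraries (log axis), ordered by level and colored by the percent of exon bases that lie in exons of another gene in GENCODE M21. Rpl3l, Rpl39l and Rps10 lie more than 100-fold below the median of 437, and Rps10, Rpl13a, Rpl23a and Rpl30 combine a low level with a large overlap.

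The paralogs differed widely in level per coding length. Per coding kilobase, Rps27l, a p53-responsive paralog of the small subunit protein Rps27, stood above its parent at 930 against 580 CPM. Both have 252 coding bases, but their exons hold 499 and 345 bases, so the size of the gap depends on the length used. The ratio of Rps27l to Rps27 ran from 1.32 to 1.9 over the 12 libraries, with a median of 165% in non-leukemic and 163% in leukemic libraries. Per coding base, Rpl22l1 stood at 34% to 56.8% of the level of Rpl22 in non-leukemic libraries (median 38.1%). In leukemic libraries it stood at 34.9% to 48.7% (median 45.1%). These ranges overlap, so neither pair showed a shift beyond the spread between libraries. The exons of Rpl22l1 and Rpl22 hold 552 and 2048 bases, so which of them is higher depends on the length used. Of the exon bases of Rpl22l1, 28.8% also lie in another gene. Rpl39l was at most 2.92% of Rpl39 and Rpl3l at most 0.316% of Rpl3. Rpl39l had 0 to 39 counts per library, and its highest value, 1.84 CPM, was in male non-leukemic replicate 3.

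Library by library, the ribosomal protein genes held 1.995%, 1.969% and 1.626% of counts in male non-leukemic replicates 1 to 3 and 2.281%, 2.156% and 2.086% in the female ones. In leukemic libraries they held 1.87%, 1.95% and 2.014% in males and 2.755%, 1.982% and 1.76% in females. The means were 2.02% ± 0.223 (SD, n = 6) in non-leukemic and 2.06% ± 0.355 (SD, n = 6) in leukemic libraries, and the ranges overlapped. Female leukemic replicate 1 was the highest of all and male non-leukemic replicate 3 the lowest. Without those libraries the means were 2.1% ± 0.127 (SD, n = 5) and 1.92% ± 0.102 (SD, n = 5), still with an overlap: the lowest non-leukemic share was 1.97% and the highest leukemic 2.01%.

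Both subunits followed this pattern. Small subunit genes made up 0.854% ± 0.0908 (SD, n = 6) of non-leukemic and 0.854% ± 0.17 (SD, n = 6) of leukemic counts, and large subunit genes 1.16% ± 0.135 (SD, n = 6) and 1.2% ± 0.184 (SD, n = 6). The ratio of small to large subunit counts was 0.734 ± 0.0274 (SD, n = 6; 0.704 to 0.779) in non-leukemic libraries. In leukemic libraries it was 0.708 ± 0.0274 (SD, n = 6), with female leukemic replicate 1 at 0.762 and the other 5 between 0.686 and 0.705. The ranges touch at 0.704 and 0.705 even without that library.

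**Figure D2:**
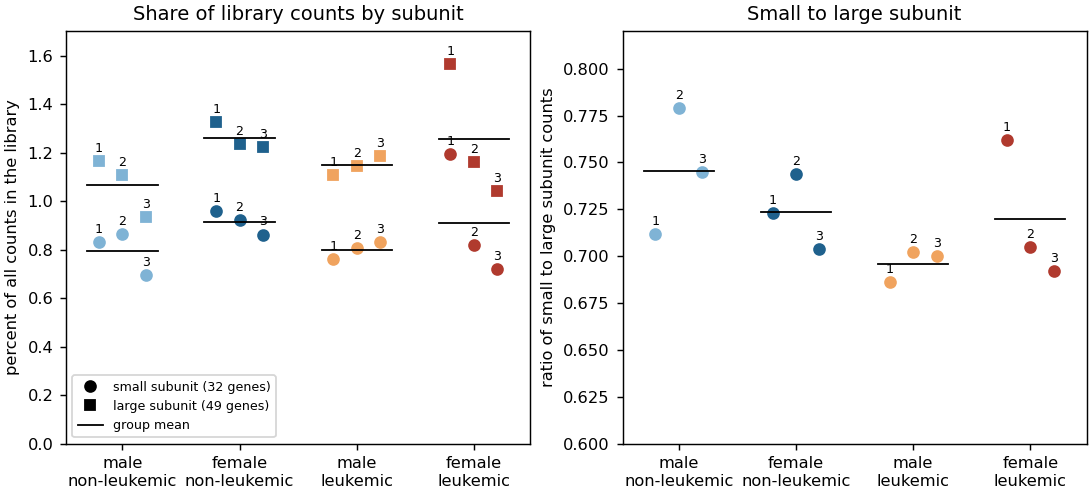
Left, percent of each library's counts in small subunit genes (circles) and large subunit genes (squares); right, their ratio on an axis that starts at 0.6. Each point is 1 library with its replicate number and black lines are means of 3 libraries. Female leukemic replicate 1 stands at 1.19% and 1.56%, above every other library, and its ratio of 0.762 is the highest among leukemic libraries.

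Female leukemic replicate 1 stood apart for nearly the whole set. It was the highest of the 12 libraries for 76 of 81 genes, while 21.7% of all 15758 genes tested were highest there. For 75 of the 81 it lay beyond the other 5 leukemic libraries by a gap past the critical value of Dixon's test, against 11.9% of all genes. The median gene was 1.83 times its median in the other 5 leukemic libraries, from 0.92 times for Rps10 to 2.34 times for Rps27. Rps15a, Rpl39 and Rps4x reached 2.31, 2.31 and 2.25 times, and Rpl4 and Rpl3 only 1.19 and 1.3 times. Across the 79 genes with a coding length, longer genes showed less of this excess (Spearman's rho -0.54, across genes of 1 library set, which are not independent replicates).

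That gradient was not limited to ribosomal proteins. Among other genes tested, the median log2 ratio of female leukemic replicate 1 to the other leukemic libraries was 0.73 for coding lengths up to 500 bases, 0.28 from there to 1000, -0.12 from 1000 to 2000 and -0.66 over 2000 bases. The ribosomal protein genes stood at 0.92, 0.76 and 0.25 in the first 3 of these classes, with 49, 27 and 3 genes. This library also had the fewest genes detected (17891, against 19521 to 21247) and the largest share of B and plasma cell markers, 4.54% of counts against 0.307% to 3.35% in the other leukemic libraries. The part of transcript length or of other cells in the excess was not tested.

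Male non-leukemic replicate 3 was the lowest library for 12 of 81 genes, against 8.24% of all genes tested. Male leukemic replicate 1 was lowest for 30 and female leukemic replicate 3 for 28, so it was not the low library of the set gene by gene. Its median gene was 0.889 times the mean of the 12 libraries, against 0.841, 0.882 and 0.856 times in male leukemic replicates 1 and 2 and female leukemic replicate 3. By summed share it was the lowest of all at 1.626%. It had the largest share of macrophage markers (0.517%, where its condition otherwise ran from 0.138% to 0.187%) and the smallest share of dividing-cell markers in that condition (0.496% against 0.711% to 0.982%). All results below are given with these libraries in and, where it matters, without both. An earlier analysis of the same table had singled them out. One is the leukemic library with the highest ribosomal protein share and the other the non-leukemic library with the lowest, so leaving out either shifts the comparison toward lower values in leukemic libraries. The values without both, with their adjusted p, are thus a description of 10 libraries and no independent test.

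**Figure D3:**
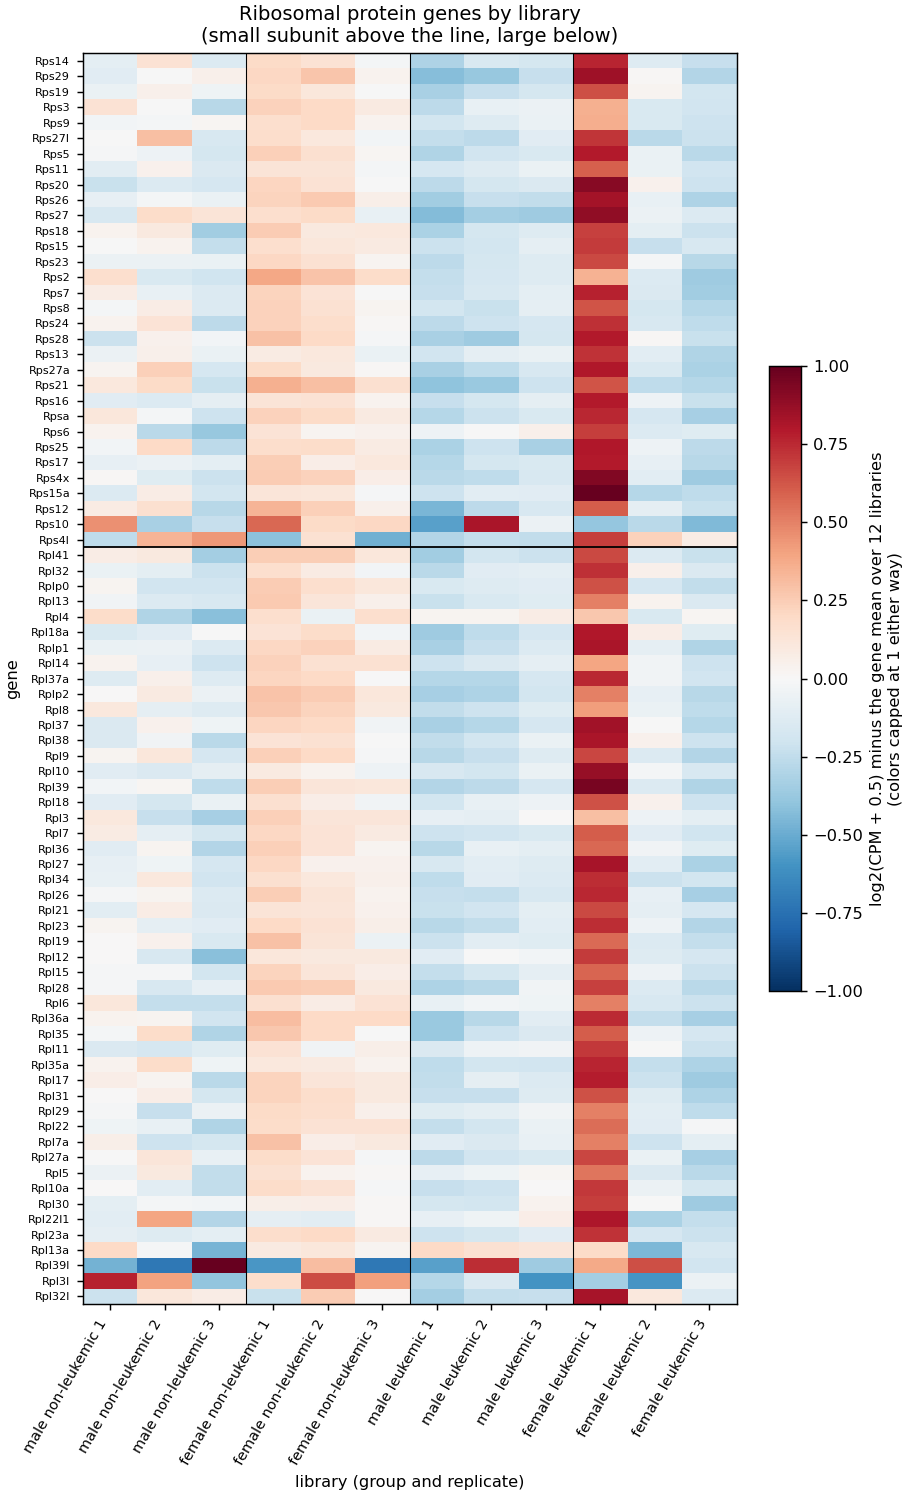
Deviation of each of the 81 genes from its mean over 12 libraries, in log2(CPM + 0.5), with rows ordered by subunit and then by level per coding length (Rps4l and Rpl32l, without a coding length, last) and columns by group and replicate. Female leukemic replicate 1 is high for all but a few genes, while Rps10, Rpl39l, Rpl3l and Rps4l vary on their own.

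The main comparison asked whether the ribosomal protein genes changed in cells from leukemic mice. With all 12 libraries no gene passed: 0 of 81 genes were higher and 0 lower at an adjusted p under 0.05 (edgeR quasi-likelihood test, Benjamini-Hochberg over 15758 genes), while 17.9% of all genes passed, 8.71% higher and 9.20% lower. At an unadjusted p under 0.05 the test gave 1 gene, Rpl3l, against 30.2% of all genes. limma-voom called 0 of the 81 (18.5% of all genes), and DESeq2 called 1, Rpl3l, lower (23.7% of all genes). The median log2 fold change was -0.04 over the 81 genes and -0.01 over all genes tested, with 56 of 81 negative. For 76 of 81 genes the 95% interval of the fold change stayed within 1.5-fold either way. No gene had all leukemic libraries on one side of all non-leukemic ones, which 8.94% of genes tested did.

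Rps21, a small subunit protein of the ribosome's solvent side, had the most negative fold change among well-counted genes. It stood at 88.1 to 132 CPM (median 117) in non-leukemic and 77.9 to 160 (median 85.2) in leukemic libraries, with log2 fold change -0.27 (SE 0.16, edgeR adjusted p = 0.278). In leukemic libraries 5 values lay between 77.9 and 89.3, below the non-leukemic ones other than male replicate 3 at 88.1, and the sixth, female replicate 1, was the highest of all at 160. Rps2, which lies near the mRNA entry site, stood at 397 to 598 CPM (median 516) and 356 to 582 (median 411), with log2 fold change -0.21 (SE 0.13, edgeR adjusted p = 0.285). The acidic stalk protein Rplp2 stood at 233 to 295 CPM (median 260) and 193 to 344 (median 207), with log2 fold change -0.21 (SE 0.12, edgeR adjusted p = 0.295). Groups overlapped for all of these.

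At the positive end, Rps6, the substrate of S6 kinase downstream of mTOR, stood at 231 to 331 CPM (median 307) in non-leukemic and 273 to 485 (median 295) in leukemic libraries, with log2 fold change 0.16 (SE 0.14, edgeR adjusted p = 0.502). Its leukemic median was the lower one, and the positive mean came with female replicate 1 at 485 CPM. Rpl10, an X-linked protein placed late in large subunit assembly, behaved likewise: 289 to 341 CPM (median 305) against 281 to 584 (median 296), log2 fold change 0.13. Rpl12 of the stalk base had 0.11.

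Rpl3l, the muscle paralog of Rpl3, had the most negative fold change at very low counts, 12 to 41 per library. It stood at 1.88, 1.35 and 0.566 CPM in male and 1.08, 1.7 and 1.36 in female non-leukemic libraries, and at 0.422 to 0.839 in leukemic ones. Every leukemic value was below every non-leukemic value except male replicate 3 at 0.566. The log2 fold change was -1.09 (SE 0.42, edgeR adjusted p = 0.0967), and the adjusted p was 0.0453 with DESeq2 and 0.0462 without male non-leukemic replicate 3 in edgeR. Rpl3 itself stood at 435 to 645 CPM (median 592) and 513 to 674 (median 523), with a log2 fold change of -0.01. That value turned to between 0.01 and 0.06 under the other scalings, under both other filters and in DESeq2, so its sign is not stable. A small shared fraction of Rpl3 reads would weigh heavily on Rpl3l, and this was not tested.

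Rps10, a protein of the small subunit head, varied by itself: 1.29 to 2.84 CPM in non-leukemic and 1.04 to 3.44 in leukemic libraries, with the highest value in male leukemic replicate 2. Its log2 fold change was -0.34 (SE 0.39, edgeR adjusted p = 0.62). Rpl39l had the most positive value, 0.28 ± 1.20 (SE), with several libraries at or under the limit for a count of 0. It carries no direction.

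With both of the libraries that stood apart left out, the picture differed. Of the 81 genes 0 were higher and 35 lower, 19 of 32 in the small and 16 of 49 in the large subunit, while 28.9% of 16300 genes passed, 14.9% higher and 14.1% lower (edgeR). The median log2 fold change was -0.21 (small subunit -0.24, large subunit -0.18) and 79 of 81 were negative. The changes were small, -0.22 to -1.24 among the 35 and no more than -0.49 in size apart from Rpl3l. All 35 had a negative sign with 12 libraries too. With female leukemic replicate 1 alone left out 12 genes passed, all lower (24.1% of all genes passed, higher or lower). The share of all genes that were lower in that fit was not listed, so the 12 have no matching share beside them. With male non-leukemic replicate 3 alone left out 1 gene passed, Rpl3l, also lower (19.6% of all genes passed, 9.94% lower).

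In those 10 libraries the 5 leukemic values all lay below the 5 non-leukemic ones for 35 genes, 29 of which also passed the test, and above for 0, against 12.4% and 9.90% of genes tested. Rps21 was again first: 111 to 132 CPM against 77.9 to 89.3, with log2 fold change -0.49 (SE 0.07, edgeR adjusted p = 0.000562). Rpl41 followed with 249 to 281 CPM against 186 to 215, with log2 fold change -0.33 (SE 0.06, edgeR adjusted p = 0.00254). Rplp2 fell by 0.33 in log2 (adjusted p = 0.00437, edgeR). Rpsa, the laminin-receptor protein of the small subunit, fell by 0.32 (adjusted p = 0.00573, edgeR) and Rpl36a, X-linked and near the E site, by 0.38 (adjusted p = 0.00625, edgeR). Rps27a, made as a fusion with ubiquitin, fell by 0.33, Rps12 by 0.36, Rps27l by 0.32 and Rps27 by 0.27.

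Genes that did not pass in that fit include Rpl10 (-0.03), Rpl11 (-0.01), Rps6 (-0.02) and Rpl4 (-0.01), whose 95% intervals reached no further than 1.5-fold. Whether genes differed from each other was not tested in that fit. Coding length moved with the fold change to some extent (Spearman's rho 0.22 over 79 genes, across genes). Among other genes tested, 21.3% of those with up to 500 coding bases and 20.2% from there to 1000 were lower in these 10 libraries. The share was 14.6% from 1000 to 2000 and 10.5% over 2000 bases, a class that holds none of the 79 genes. Among ribosomal protein genes it was 46.9% and 40.7% in the classes up to 500 and from 500 to 1000 bases. The part of length was not tested.

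**Figure D4:**
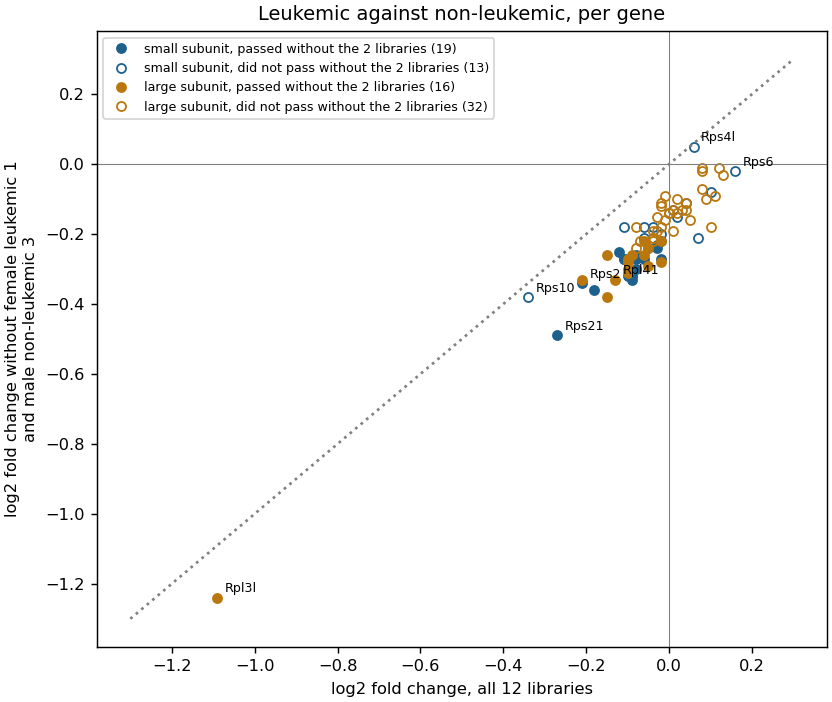
Log2 fold change of leukemic against non-leukemic for 80 ribosomal protein genes with all 12 libraries (horizontal) and with both libraries that stood apart left out (vertical); filled points passed in the second fit (19 small and 16 large subunit genes), the dotted line marks equal values, and Rpl39l, near 0 counts, is left out. The points lie below the line by about 0.2, and Rps21 and Rpl3l stand apart at the negative end.

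Scaling by the summed counts of the 81 genes in place of the whole library asks which genes depart from the rest of the set. On that scale 0 of 81 passed (12.5% of all genes did), and 2, Rps21 and Rpl3l, had an unadjusted p under 0.05. Rps21 stood at -0.25 ± 0.10 (SE, adjusted p = 0.126, edgeR) and Rpl3l at -0.99 ± 0.42 (SE, adjusted p = 0.157, edgeR). No departure from the common level passed.

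Other cell types moved with the condition and their part in these values was not tested. In bulk samples fewer cells of a type and less RNA per cell cannot be told apart. The summed share of 12 erythroid markers was 1.52% to 1.97% in non-leukemic and 0.0793% to 0.154% in leukemic libraries. With erythroid counts taken out of the total, the ribosomal protein share was 2.05% ± 0.23 (SD, n = 6) and 2.06% ± 0.356 (SD, n = 6). The 13 macrophage markers held 0.138% to 0.517% and 0.0539% to 0.124%, the 13 neutrophil markers 2.89% to 6.74% and 1.29% to 2.75%, and the 13 T and NK cell markers 0.0309% to 0.0596% and 0.132% to 0.278%. The 10 progenitor markers held 0.058% to 0.0925% and 0.157% to 0.183%, and the 13 markers of eosinophils, basophils and mast cells 0.557% to 1.11% and 1.11% to 3.6%. The 16 markers of dividing cells held 0.496% to 0.982% and 0.413% to 0.597%. Without the 2 libraries that stood apart, the dividing-cell shares did not overlap. They were 0.711% to 0.982% in non-leukemic and 0.487% to 0.597% in leukemic libraries. Erythroid, macrophage and neutrophil shares were also lower there without overlap, and those of T and NK cells and of progenitors were higher. None of these markers was at 0 in all libraries, and markers of neutrophils, which the gate should remove, outweighed those of macrophages in every range.

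By sex, 0 of 81 genes passed in males (7.37% of all genes did) and 0 in females (8.43%), with median log2 fold changes of -0.12 and 0.05. Without the 2 libraries 3 genes were lower in males (Rps21, Rpl41 and Rps27a; 8.37% of all genes were lower) and 14 in females (7.53% lower). Rps21 fell by 0.45 in males (adjusted p = 0.0149, edgeR) and by 0.53 in females (adjusted p = 0.01, edgeR), and Rpl41 by 0.30 and 0.36. The 14 in females include Rplp0, Rplp1 and Rplp2, which form the stalk that recruits elongation factors, and Rps4x and Rpl36a from the X chromosome.

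The difference between the sexes was tested with all 12 libraries. None of the 81 genes and 0% of all genes passed the interaction. At an unadjusted p under 0.05 there were 1 of the 81 and 925 of all genes. The 1 gene was Rps4l, a paralog of Rps4x, at -0.48 in males and 0.59 in females, a log2 difference of 1.07 ± 0.37 (SE, adjusted p = 0.819, edgeR). It stood at 14.7, 22.5 and 24 CPM in male and 13.2, 19.7 and 12.5 in female non-leukemic libraries. Leukemic values were 14.3, 14.9 and 14.8 in males and 28.9, 20.8 and 18.6 in females.

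Grouped by role, the stalk genes Rplp0, Rplp1, Rplp2 and Rpl12 gave 0 of 4 passed, and 2 of 4 lower without the 2 libraries. Rpl5 and Rpl11, which with 5S rRNA form the particle that binds Mdm2, stood at 123 to 162 CPM and 131 to 163 CPM in non-leukemic and 121 to 212 and 127 to 241 CPM in leukemic libraries. Their log2 fold changes were 0.03 and 0.12, and neither passed in either fit. Of 20 genes mutated in Diamond-Blackfan anemia, an inherited failure of red cell production, 0 passed, and 9 were lower without the 2 libraries. Rps19, the gene most often mutated there, stood at 456 to 545 CPM (median 485) against 382 to 749 (median 422), with log2 fold change -0.06 (SE 0.14, edgeR adjusted p = 0.83). Rps14, lost in the 5q- syndrome, had -0.05 with 12 libraries and -0.24 without the 2 (adjusted p = 0.0299, edgeR). Of the 4 X-linked genes 0 passed, and 3 (Rps4x, Rpl36a and Rpl39) were lower without the 2 libraries. The counts without the 2 libraries, 2 of 4, 9 of 20 and 3 of 4, stand beside 35 of 81 for the whole set and 14.1% of all genes, and nothing particular to these groups was tested.

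Of the 8 ribosomal genes tested that the symbol rule leaves out, 0 passed, and 2 were lower without the 2 libraries. Over all genes 17.9% passed with 12 libraries, and 14.1% were lower without the 2. Rps3a1 had a log2 fold change of -0.10 with 12 libraries and -0.24 without the 2 (adjusted p = 0.0177, edgeR), and the ubiquitin-like fusion Fau -0.11 and -0.21 (adjusted p = 0.0487, edgeR). Rack1, the signaling scaffold of the small subunit, had 0.03 and -0.19.

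The factors that build ribosomes gave other counts. Of 65 biogenesis genes 4 were higher and 0 lower with 12 libraries, and 16 higher and 1 lower without the 2, with medians of 0.17 and 0.16. Utp15, of the small subunit processome, rose by 0.54 in log2 (SE 0.13, edgeR adjusted p = 0.0117), from 43.6 to 71.5 CPM to 74.6 to 93.6 CPM, with no overlap. The U3 protein Rrp9 rose by 0.47 (adjusted p = 0.0145, edgeR), the nucleolar protein Ebna1bp2 by 0.39 (adjusted p = 0.0147, edgeR) and Rrp1b by 0.48 (adjusted p = 0.0487, edgeR). Among 10 chaperones and importers of ribosomal proteins 1 passed: Grwd1, the chaperone of Rpl3, rose by 0.36 (adjusted p = 0.0309, edgeR). The calls of Rrp1b and Grwd1 were marginal. Rrp1b kept its call only when the library left out was female non-leukemic replicate 1 or 3 or female leukemic replicate 1, and otherwise had an adjusted p of 0.0544 to 0.101 (edgeR). Grwd1 lost its call without male non-leukemic replicate 1 or 2, female non-leukemic replicate 2 or male leukemic replicate 2 (adjusted p 0.0517 to 0.0824, edgeR). The shares 4 of 65 and 1 of 10 lie near or below the 8.71% of all genes that were higher. For the 16 of 65 without the 2 libraries the share of all genes was 14.9%.

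Of 26 other genes listed as having TOP transcripts, 0 passed with 12 libraries (median -0.01) and 4 were lower without the 2 (median -0.15). The matching shares over all genes were 17.9% and 14.1%. The list includes noncoding transcripts such as Gas5 and Snhg5, and the motif was not checked for it. Of the 26 genes, 18 were highest in female leukemic replicate 1. Eef1a1, the elongation factor that brings aminoacyl-tRNA, had 0.28 (adjusted p = 0.21, edgeR). Among 32 other translation factors 1 was higher and 2 lower, which as shares lie below the 8.71% and 9.20% of all genes. The initiation factor Eif1a rose from 74.5 to 104 CPM to 126 to 165 CPM, with log2 fold change 0.68 (SE 0.10, edgeR adjusted p = 0.000564). Eif5, which triggers GTP hydrolysis at the start codon, fell by 0.41 (adjusted p = 0.017, edgeR), and Eif2b4, part of the eIF2 exchange factor, fell by 0.50 (adjusted p = 0.0189, edgeR). Eif5 lost its call without male non-leukemic replicate 1, female non-leukemic replicate 1 or 3, any male leukemic library or female leukemic replicate 2 (adjusted p 0.0517 to 0.058, edgeR). Eif2b4 lost it without male non-leukemic replicate 1, female non-leukemic replicate 1 or 3 or male leukemic replicate 2 (adjusted p 0.0501 to 0.0648, edgeR).

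Among 24 regulators of TOP translation and ribosomal gene transcription 3 were higher and 5 lower in either fit, beside 8.71% and 9.20% of all genes with 12 libraries and 14.9% and 14.1% without the 2. Eif4ebp1, the mTOR-controlled inhibitor of cap binding, fell by 0.68 ± 0.13 (SE, adjusted p = 0.00241, edgeR), from 126 to 189 CPM to 71.8 to 130 CPM. Mxd1, an antagonist of Myc, fell by 1.01 ± 0.17 (SE, adjusted p = 0.00115, edgeR), from 150 to 258 CPM to 52.7 to 115 CPM. Myc, which drives ribosome biogenesis genes, rose by 0.50 ± 0.13 (SE, adjusted p = 0.015, edgeR): 209 to 346 CPM (median 304) against 352 to 472 (median 413). Mycn rose by 0.74 (adjusted p = 0.0143, edgeR) and Larp4, a poly(A) binding protein, by 0.51 (adjusted p = 0.00651, edgeR). Also lower with 12 libraries were Mlst8 (-0.68, adjusted p = 0.0148, edgeR), Rps6kb2 (-0.55, adjusted p = 0.0206, edgeR) and Larp4b (-0.42, adjusted p = 0.0197, edgeR). Mtor (0.13, adjusted p = 0.637, edgeR) and Larp1 (0.00, adjusted p = 1, edgeR) did not pass. Mycn is also on the progenitor marker list, whose share was higher in leukemic libraries, and the part of other cells was not tested.

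Of 22 p53 target genes tested 6 were higher and 2 lower, and 8 were higher and 3 lower of 23 without the 2 libraries. Over all genes 8.71% were higher and 9.20% lower with 12 libraries, and 14.9% and 14.1% without the 2. The cell cycle inhibitor Cdkn1a rose by 1.25 ± 0.24 (SE, adjusted p = 0.00322, edgeR) and Perp by 1.33 (adjusted p = 0.00499, edgeR). Phlda3 rose by 1.25 (adjusted p = 0.0115, edgeR) and the BH3 protein Pmaip1 by 1.18 (adjusted p = 0.0104, edgeR). The CPM ranges of the conditions overlapped for Cdkn1a, Phlda3 and Pmaip1 but not for Perp. The lower genes were Btg2 (-0.50, adjusted p = 0.0236, edgeR) and Sesn1 (-0.36, adjusted p = 0.0375, edgeR), and Bax had -0.01. Mdm2, the p53 ligase that Rpl5 and Rpl11 bind, had 0.31 (adjusted p = 0.114, edgeR) with 12 libraries and 0.42 (adjusted p = 0.00156, edgeR) without the 2. Rps27l, itself a p53 target, had -0.10 ± 0.17 (SE, adjusted p = 0.754, edgeR).

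Mitochondrial ribosomal proteins, which build a separate ribosome inside mitochondria, gave 1 higher and 6 lower of 77, and 1 higher and 32 lower without the 2 libraries. Their medians were -0.13 and -0.22, and 52 of 77 were highest in female leukemic replicate 1. With 12 libraries 8.71% of all genes were higher and 9.20% lower, so neither 1 nor 6 of 77 exceeds the share over all genes. Mrps36, now known as a subunit of the oxoglutarate dehydrogenase complex, fell by 0.87 ± 0.18 (SE, adjusted p = 0.00516, edgeR), and Mrps6 rose by 0.95 ± 0.21 (SE, adjusted p = 0.00801, edgeR). The share that was lower without the 2 libraries was 35 of 81 for cytoplasmic and 32 of 77 for mitochondrial ribosomal proteins, against 14.1% of all genes. Whether the lists differ from other genes was not tested.

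**Figure D5:**
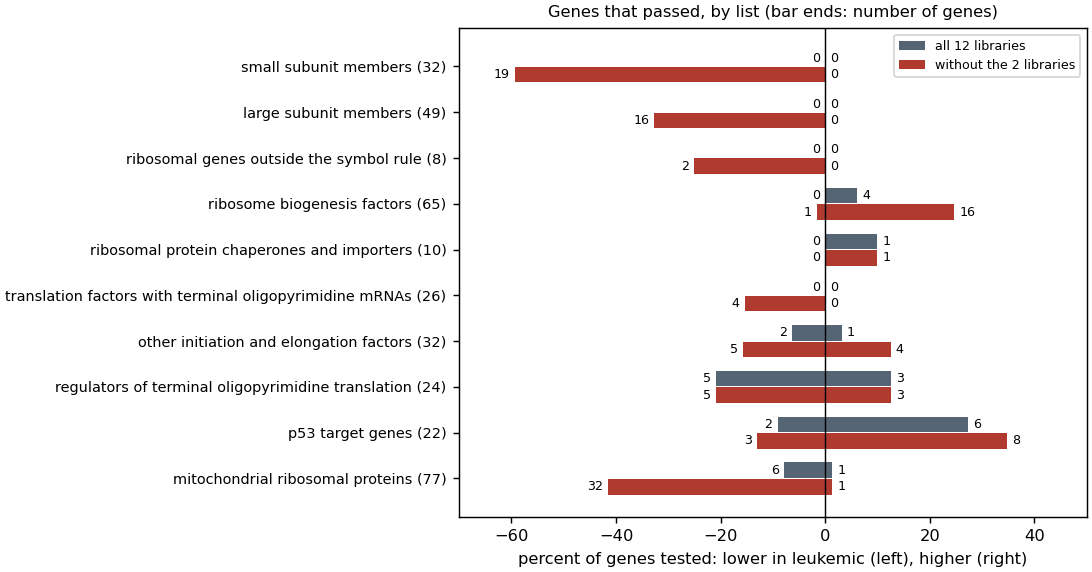
Percent of the genes tested in each list (number in brackets) that were lower (left) or higher (right) in leukemic libraries at an adjusted p under 0.05 in edgeR, with all 12 libraries (grey) and with both libraries that stood apart left out (red); numbers at the bar ends are genes. The small and large subunit lists of the cytoplasmic ribosome have 0 genes with 12 libraries and 19 and 16 lower genes without the 2, and biogenesis factors have 4 and 16 higher genes.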

How the data were processed

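RNA was extracted from sorted cells, 1 ng was pre-amplified with a kit that marks neither strand nor molecules, and libraries were made by tagmentation, per the labels' protocols. The authors deposited unnormalized raw counts per gene, each library in its own column. The submitters' processing notes name fastp 0.23.1, STAR 2.7.9a, Subread 2.0.1 with featureCounts, and the build GRCm39, without settings. No library copied another (lowest chi-square per degree of freedom 22.6 within a group).

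Genes were filtered with filterByExpr over 4 groups of 3 libraries and tested with edgeR 4.0.16 (TMM, robust quasi-likelihood, sex as a term, R 4.3.3). A model of 4 group means gave the effects by sex and their interaction. P values were two-sided and adjusted by Benjamini and Hochberg over all 15758 genes tested. SE is the log2 fold change divided by the square root of F. Intervals cover the spread between libraries, and limits for a count of 0 cover counting error only. Alternatives were other scalings, DESeq2 1.42.0, limma-voom (limma 3.58.1), other filters, no sex term, a replicate block, fits limited to the compared libraries, each library left out, and 2 libraries left out. Scaling by the summed ribosomal protein counts was added after seeing the data. The fit was tested on simulated data.

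The genes, lists and the 2 libraries left out were chosen with earlier results of these data known. Named genes are the 6 most positive and 6 most negative fold changes, the paralog, stalk, 5S and X-linked genes, the 3 highest and 3 lowest levels per coding length, 8 genes picked for their role, and the 4 lowest p of each other list with a few regulators. Genes with an outlying library, 76 in leukemic libraries, are counted, with values for those the other clauses name. Further genes were named after their values were seen. Coding lengths, exon overlaps (GENCODE M21) and start sequences (RefSeq) come from GRCm38.p6 and were joined by symbol, not position.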

Additional observations from a re-analysis of the deposited data

Results flagged for a closer look

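In 35 cases among the summed measures and the named genes, 1 library stood apart from the other 5 of its condition. The gap passed Dixon's 95% critical value for 6 samples. Chance flags about 1 in 20 groups of values, and these genes are not independent. Of the 81 genes, 76 had such a library among the leukemic ones, 75 of them female leukemic replicate 1 (11.9% of all genes tested had that library apart in the same way), and 3 among the non-leukemic ones.

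The summed shares were set apart by female leukemic replicate 1: 2.76% of counts for all 81 genes, 1.19% for the small and 1.56% for the large subunit, and 0.762 for their ratio. In the same library the small subunit genes stood at 124 CPM for Rps12, 999 for Rps14, 749 for Rps19, 582 for Rps2, 160 for Rps21, 262 for Rps27, 341 for Rps27a, 378 for Rps27l, 973 for Rps3, 546 for Rps4x, 485 for Rps6 and 615 for Rpsa. The large subunit genes stood there at 584 CPM for Rpl10, 160 for Rpl10a, 241 for Rpl11, 242 for Rpl12, 142 for Rpl22, 65.9 for Rpl22l1, 674 for Rpl3, 921 for Rpl32, 153 for Rpl36a, 145 for Rpl39, 374 for Rpl41, 212 for Rpl5, 1810 for Rplp0, 450 for Rplp1 and 344 for Rplp2.

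Rps10 was apart in male leukemic replicate 2 at 3.44 CPM. Male non-leukemic replicate 3 was apart for Rpl13a at 13.7 CPM, Rpl39l at 1.84 CPM and Rpl41 at 187 CPM.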

How the results depend on the processing

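Among all 81 genes, 0 higher and 0 lower held under each other scaling, filter and model run with all 12 libraries, including the replicate block, except that DESeq2 called 1 lower. Leaving out 1 library at a time gave 0 to 12 lower in the main comparison, 0 to 1 in males and 0 to 3 in females, the highest each time without female leukemic replicate 1. Without the 2 libraries the counts were 35, 3 in males and 14 in females. Same-numbered libraries of a sex correlated at -0.04 to 0.14 in their deviations, so numbers were not taken to pair them; with the replicate block Grwd1 and Rrp1b no longer passed, and the counts of the 81 genes stayed 0. Letting the run begin within 5 bases of the start, which is looser than the TOP motif, raised the share from 23.3% to 50%. Of all genes, 21.2% met the looser rule.

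Signs near 0 turned. Without the 2 libraries the log2 fold change was -0.03 for Rpl10, -0.13 for Rpl10a, -0.01 for Rpl11, -0.09 for Rpl12, -0.14 for Rpl13a, -0.18 for Rpl22l1, -0.07 for Rpl32, -0.13 for Rpl5, -0.02 for Rps6, 0.17 for Larp1 and -0.19 for Rack1. Rpl22 had 0.01 with RLE and DESeq2, 0.06 with upper-quartile factors and with totals, 0.02 with either other filter, 0.00 without sex and 0.04 on the summed ribosomal protein scale. Rpl3 had 0.01, 0.01, 0.05, 0.06, 0.02, 0.01 and 0.05 with RLE, DESeq2, upper-quartile factors, totals, no filter, 5 CPM in 3 libraries and the summed scale. Larp1 had 0.01 with RLE, DESeq2 and the 5 CPM filter, 0.05 with upper-quartile factors, 0.09 with totals, 0.03 unfiltered, 0.02 without sex and 0.12 on the summed scale. With upper-quartile factors and totals Rpl39 had 0.04 and 0.03 (0.00 with either other filter), Rplp0 0.03 and 0.03, Rplp1 0.02 and 0.01, Rps14 0.01 and 0.01, Rps19 0.00 and 0.00 and Rps4x 0.04 and 0.03. Rack1 had -0.01 with limma-voom.

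Leaving out 1 library at a time, the range was -0.04 to 0.23 for Rpl10, -0.10 to 0.13 for Rpl10a, -0.01 to 0.22 for Rpl11, -0.01 to 0.21 for Rpl12, -0.09 to 0.13 for Rpl13a, -0.09 to 0.08 for Rpl22, -0.10 to 0.22 for Rpl22l1, -0.06 to 0.07 for Rpl3, -0.05 to 0.17 for Rpl32, -0.24 to 0.10 for Rpl39, -0.09 to 1.97 for Rpl39l, -0.08 to 0.12 for Rpl5, -0.16 to 0.07 for Rplp0, -0.22 to 0.07 for Rplp1, -0.21 to 0.05 for Rps14, -0.18 to 0.03 for Rps19, -0.29 to 0.01 for Rps27a, -0.07 to 0.17 for Rps4l, -0.23 to 0.10 for Rps4x, -0.27 to 0.01 for Rpsa, -0.07 to 0.15 for Larp1 and -0.14 to 0.15 for Rack1. The cause was not tested. Depth limits Rpl3l, Rpl39l, Rpl32l and Rps10, whose intervals exceed 1.5-fold.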
